A study of Arabidopsis thaliana with 4 samples.

Results

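Indolic glucosinolate synthesis is represented here by 10 genes of Arabidopsis thaliana. They are the regulators MYB34 (AT5G60890), MYB51 (AT1G18570) and MYB122 (AT1G74080), and the enzyme genes CYP79B2 (AT4G39950), CYP79B3 (AT2G22330), CYP83B1 (AT4G31500), SUR1 (AT2G20610), UGT74B1 (AT1G24100), SOT16 (AT1G74100) and CYP81F2 (AT5G57220). They were chosen by locus, and a probe was assigned to a locus through the RefSeq transcript named for it on the array. All 10 were found, 9 with 1 probe each and CYP79B2 with 2, among 20412 genes tested. Their probes passed the scanner's test against background in Cy5 and in Cy3 on every array, and the filter on dim probes removed none of the 10.

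The material was whole wild-type seedlings of the Col-0 ecotype, 14 d old and raised in short days (8 h of light, 16 h of dark). The salt groups sat on paper soaked in NaCl at 300 mM, for 2 h on 2 arrays and for 5 h on the other 2, and untreated seedlings (0 h) served as the control. Each array carried salt RNA in Cy5 and 0 h RNA in Cy3, with no dye swap. The design text of the series gives 2 biological replicates, but the 0 h RNA carries no number in the labels and was counted as 1 control sample. A mock transfer to paper without NaCl was not analysed here, and the hour of harvest is not given in the sources used here. Salt, transfer and time of day therefore cannot be told apart, and a dye bias of single genes cannot be separated from the ratios to 0 h.

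Glucosinolates are sulfur-rich glucosides of mustard-family plants that release toxic or signalling products when myrosinases, a kind of beta-glucosidase, cut off the glucose. The indolic branch starts from tryptophan. CYP79B2 and CYP79B3 turn tryptophan into indole-3-acetaldoxime, a branch point shared with the antimicrobial compound camalexin and with a route to auxin, and CYP83B1 commits the oxime to glucosinolates. The C-S lyase SUR1, the glucosyltransferase UGT74B1 and the sulfotransferase SOT16 complete the core, and SUR1 and UGT74B1 also serve the aliphatic, methionine-derived branch. CYP81F2 hydroxylates the finished indole ring, a step known for its part in defence against fungi and aphids. MYB34, MYB51 and MYB122 are related R2R3-MYB factors that activate these genes.

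Values are log2 ratios of salt over 0 h, so a value of 1 is a doubling. Each change is the mean of 2 arrays ± limma's moderated SE, which pools the spread of both times, with p-values adjusted by Benjamini-Hochberg over all genes tested and a threshold of 0.05. Across genes, log2 ratios correlated at 0.9897 between the 2 h arrays and 0.9954 between the 5 h arrays, and at 0.8026 to 0.8049 between arrays of different times. Per array and channel, 70.5% to 72.4% of spots passed the background test, and 0 were saturated. All 4 arrays lay on 1 slide in 1 scan. Precision is limited by having 2 arrays for each time. The 12 root markers and 10 green leaf markers examined all passed the background test in the 0 h RNA of every array.

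After 2 h of salt 9 of the 10 genes were higher than at 0 h and 0 were lower, and 6 of them were at least 2-fold higher. Over all genes tested, 81.9% were called at 2 h, 41.4% higher and 40.5% lower, and 9.75% were called at least 2-fold higher. The median log2 change was 1.22 over the 10 genes and 0 over all genes tested. At 5 h, 7 genes were higher and 3 lower, 4 of them at least 2-fold higher, with a median of 0.35. Over all genes, 87.7% were called at 5 h, 44.1% higher and 43.7% lower, with 13.6% at least 2-fold higher and 7.28% at least 2-fold lower. Both MYB34 and UGT74B1 were higher at 2 h and lower at 5 h, a pattern of 4.85% of all genes, and 7 of the 10 genes were higher at both times, as were 32.5% of all genes. So many genes passed the test that a call alone says little about a single gene, and the sizes below carry the description.

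**Figure D1:**
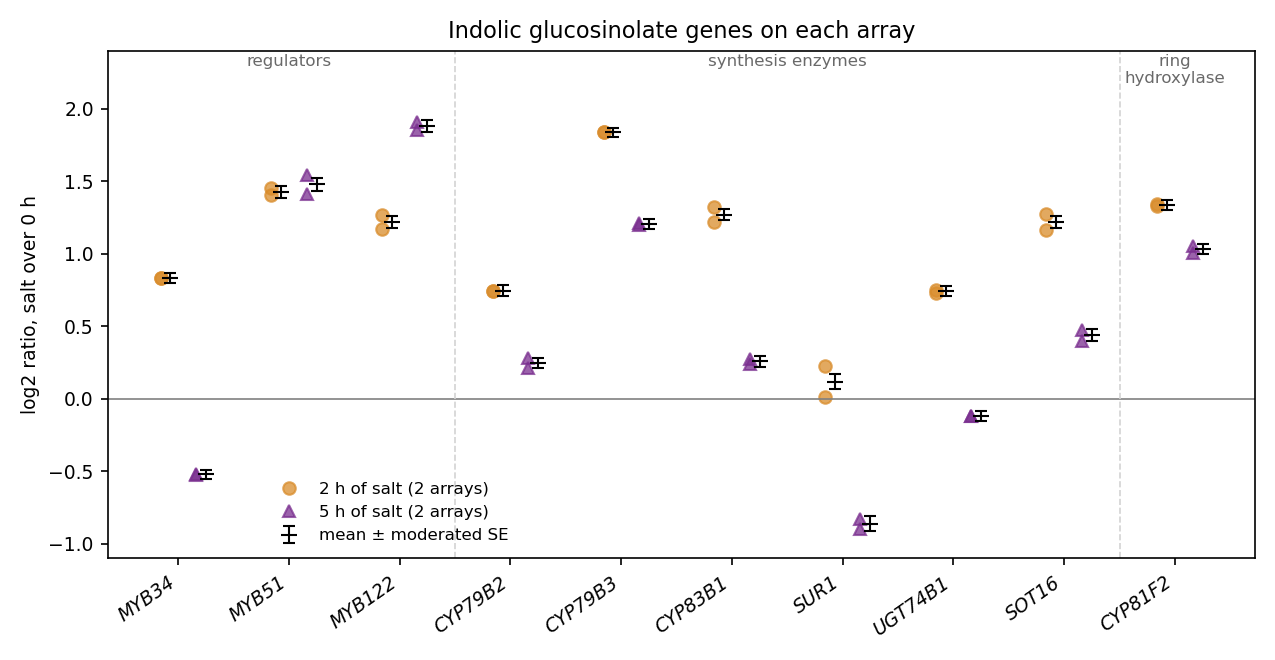
Log2 ratio of salt over 0 h (y axis) for the 10 genes in pathway order (x axis), with a point for each array (circles 2 h, triangles 5 h) and, in black, the mean of 2 arrays ± moderated SE. MYB51, MYB122, CYP79B3 and CYP81F2 stayed above 1 at both times, whereas MYB34, SUR1 and, at −0.12, UGT74B1 lay below 0 at 5 h.

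The 3 regulators moved apart with time. MYB51, the main activator of the indolic branch in shoots, had log2 ratios of 1.45 and 1.40 on the 2 h arrays and of 1.41 and 1.545 on the 5 h arrays. These overlapped between the times, and MYB51 stood 2.69-fold higher than 0 h after 2 h (1.43 ± 0.043) and 2.79-fold higher after 5 h (1.48 ± 0.043). MYB122, a close relative with a smaller known role, had ratios of 1.17 and 1.27 at 2 h, and both 5 h arrays lay above these at 1.91 and 1.86. It rose 2.33-fold at 2 h (1.22 ± 0.039) and 3.68-fold at 5 h (1.88 ± 0.039). Its spots were the dimmest of the 10 genes, and the offset of 50 added in background correction pulls dim ratios toward 0. With offset 0 MYB122 stood at 1.60 and 2.43, and in the deposited log2 values at 1.76 and 2.58.

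MYB34, known best for its role in roots, was the only regulator to change direction. Its ratios were 0.83 on each 2 h array and −0.52 and −0.525 on the 5 h arrays. At 2 h it was 1.78-fold higher than 0 h (0.83 ± 0.034). At 5 h it was 1.44-fold lower than 0 h (−0.52 ± 0.034, adjusted p = 1.67e-06, limma). On the intensity scale MYB34 gave 11700 and 11510 in 2 h salt RNA, against 6576 and 6468 in the 0 h RNA of the same arrays. It gave 4413 and 4737 in 5 h salt RNA, against 6314 and 6814 in 0 h RNA. No salt value lay within the range of the 0 h readings at either time. Those readings were counted as 1 control sample, so their range is not a spread among controls.

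The paired enzymes of the first step also differed in size. CYP79B3 had the largest 2 h change of the 10 genes, at 1.84 on both arrays, a 3.57-fold rise (1.84 ± 0.034). At 5 h its arrays gave 1.21 and 1.20, a 2.31-fold rise (1.21 ± 0.034). CYP79B2 gave 0.75 on both 2 h arrays and 0.28 and 0.21 on the 5 h arrays, which is 1.68-fold (0.75 ± 0.036) and 1.19-fold (0.25 ± 0.036) above 0 h. The second CYP79B2 probe lay higher at each time, with means of 1.01 at 2 h and 0.50 at 5 h, still below CYP79B3. CYP79B2 and CYP79B3 are close paralogs, so cross-hybridisation between their probes was not tested and the split between them is uncertain.

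CYP83B1 gave log2 ratios of 1.32 and 1.22 at 2 h and of 0.24 and 0.27 at 5 h. It was 2.41-fold higher than 0 h at 2 h (1.27 ± 0.039) and 1.20-fold higher at 5 h (0.26 ± 0.039), so that most of the 2 h difference was gone at 5 h. The 5 h changes of CYP79B2 and CYP83B1 did not pass with the Feature Extraction ratio, at 0.06 (adjusted p = 0.115, limma) and 0.081 (adjusted p = 0.177, limma). With that ratio the median of all genes at 5 h was −0.135. Relative to that median CYP79B2 stood at 0.195 and CYP83B1 at 0.216. The highest 0 h intensity over the 4 arrays was 1.13 times the lowest for CYP79B2 and 1.19 times for CYP83B1, next to 5 h changes of 1.19-fold and 1.20-fold. The 0 h range is of the Cy3 channel over unscaled arrays, so it does not measure the error of a ratio taken within an array.

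The later core enzymes changed by unequal amounts. SUR1 gave 0.01 and 0.22 on the 2 h arrays, the widest gap between arrays of 1 time among the 10 genes, and its mean of 0.12 ± 0.053 did not pass (adjusted p = 0.0675, limma). Its 95% interval ran from −0.004 to 0.242. At 5 h SUR1 gave −0.825 and −0.895 and was 1.82-fold lower than 0 h (−0.86 ± 0.053, adjusted p = 1.19e-06, limma), the largest fall of the 10 genes.

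UGT74B1 gave 0.75 and 0.73 at 2 h, 1.67-fold above 0 h (0.74 ± 0.034). At 5 h it gave −0.12 on both arrays (−0.12 ± 0.034, adjusted p = 0.0118, limma), a 1.09-fold difference that ended as a call with median centring in place of loess (adjusted p = 0.215, limma). Leaving out 5 h replicate 1 or 5 h replicate 2 also ended it, at adjusted p = 0.109 and 0.0993. SOT16, which adds the sulfate group, gave 1.16 and 1.27 at 2 h and 0.47 and 0.40 at 5 h. It was 2.33-fold higher than 0 h at 2 h (1.22 ± 0.041) and 1.35-fold higher at 5 h (0.44 ± 0.041). SOT16 and CYP83B1 had the most similar ratios of any pair among the 10 genes, at a Euclidean distance of 0.311 over the 4 arrays.

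CYP81F2, the ring hydroxylase, gave 1.35 and 1.33 at 2 h and 1.06 and 1.005 at 5 h. It rose 2.53-fold at 2 h (1.34 ± 0.035) and 2.04-fold at 5 h (1.03 ± 0.035). In 2 h salt RNA its intensities were 788.3 and 716.8, against 310.2 and 284.7 in 0 h RNA. In 5 h salt RNA they were 584.7 and 623.6, against 281.2 and 310.7 in 0 h RNA. All 4 salt values lay above all 0 h readings, which were counted as 1 control sample.

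**Figure D2:**
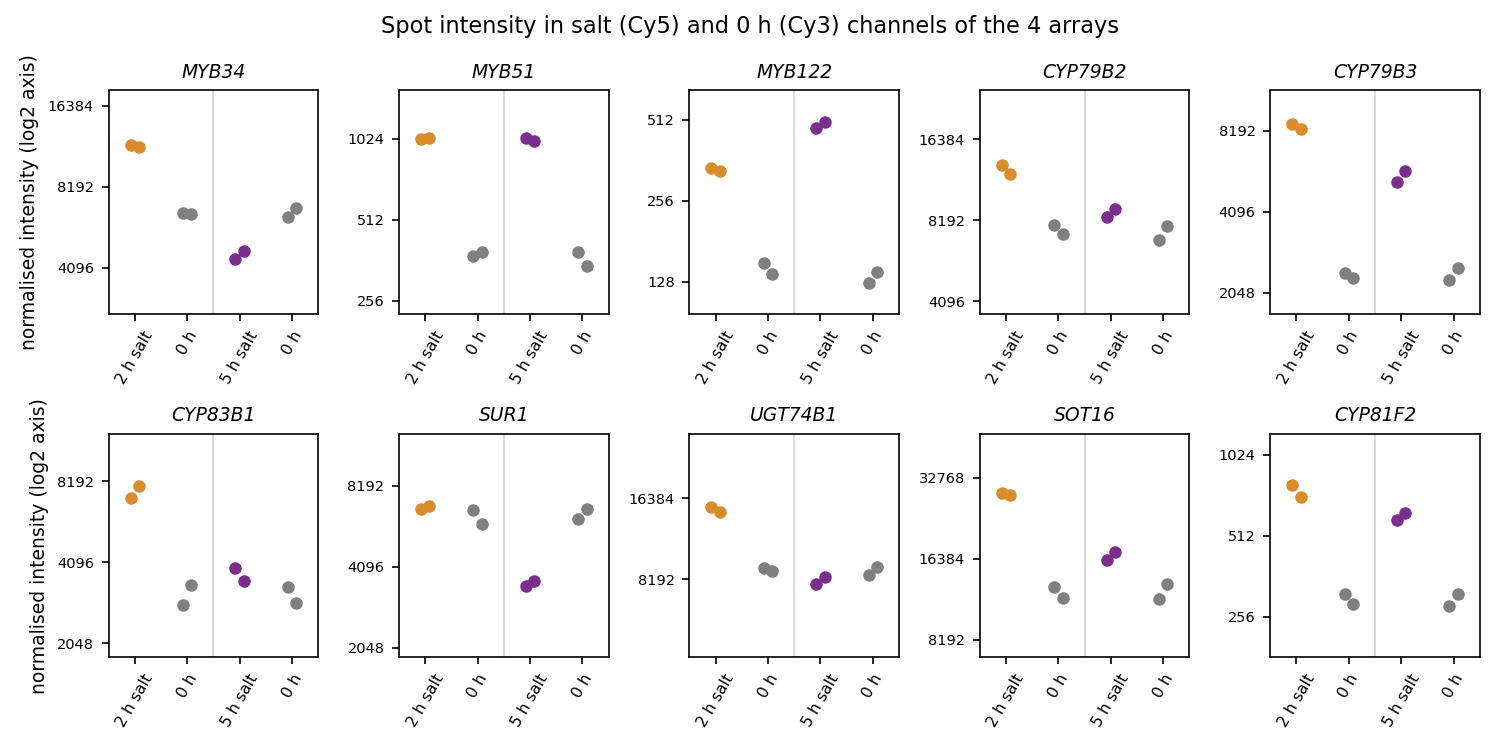
Background-corrected, loess-normalised spot intensity (y axis, log2 scale, arbitrary units) of each gene in the salt channel (Cy5, coloured) and the 0 h channel (Cy3, grey) of the 2 arrays per time (x axis). The 0 h intensities of a gene stayed within 1.07-fold (UGT74B1) to 1.19-fold (CYP83B1) of each other over the 4 arrays, and no scaling was applied between arrays.

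In order of their 2 h changes the genes formed steps. CYP79B3 stood alone at the top, its 95% interval (1.758 to 1.916) clear of the next. MYB51, CYP81F2, CYP83B1, MYB122 and SOT16 followed between 1.43 and 1.22, each with an interval that overlapped the next one's. MYB34, CYP79B2 and UGT74B1 formed a lower step between 0.83 and 0.74, again with overlapping neighbours, and SUR1 came last. The place of MYB122 at 2 h depends on the processing. With offset 0, the Feature Extraction ratio and the deposited values it came directly after CYP79B3. In that order MYB122 stood at 1.60, 1.64 and 1.76, and CYP79B3 at 1.82, 1.73 and 1.84. At 5 h the order was MYB122, MYB51, CYP79B3 and CYP81F2, with no overlap between neighbours, then SOT16, CYP83B1 and CYP79B2 between 0.44 and 0.25, where neighbours overlapped. UGT74B1, MYB34 and SUR1 closed it.

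The comparison of 5 h with 2 h asked how the response moved between the times. A dye bias that is constant for a gene drops out of it. Of the 10 genes 8 were lower at 5 h than at 2 h, 1 was higher and 1 did not pass, while over all genes 72.5% passed, 38.9% lower and 33.6% higher. The median difference was −0.71 over the 10 genes and −0.034 over all genes. MYB34 had the largest difference, with −0.52 at 5 h and 0.83 at 2 h (−1.35 ± 0.048, adjusted p = 3.5e-07, limma). A share of 1.09% of all genes tested had a lower value of this difference.

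CYP83B1 (−1.01 ± 0.055) was the other gene at least 2-fold lower at 5 h than at 2 h. That size was called in 3.43% of all genes, and a 2-fold higher value in 4.33%. CYP83B1 crossed the 2-fold line under other settings, with −0.99 under median centring and −0.96 without 2 h replicate 1, while the deposited values put SUR1 (−1.02) and UGT74B1 (−1.02) past that line too. SUR1 (−0.98 ± 0.075), UGT74B1 (−0.86 ± 0.048), SOT16 (−0.78 ± 0.059), CYP79B3 (−0.63 ± 0.048), CYP79B2 (−0.50 ± 0.051) and CYP81F2 (−0.31 ± 0.05) were lower by less. MYB122 was 1.58-fold higher at 5 h than at 2 h (0.66 ± 0.055). For MYB51 the difference was 0.05 ± 0.06, with a 95% interval of −0.091 to 0.191 (adjusted p = 0.48, limma). All enzyme genes of the set thus stood lower at 5 h than at 2 h, and of the 3 regulators MYB34 alone did so. The adjusted p of the 9 genes that passed ran from 3.5e-07 to 0.00082 (limma).

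**Figure D3:**
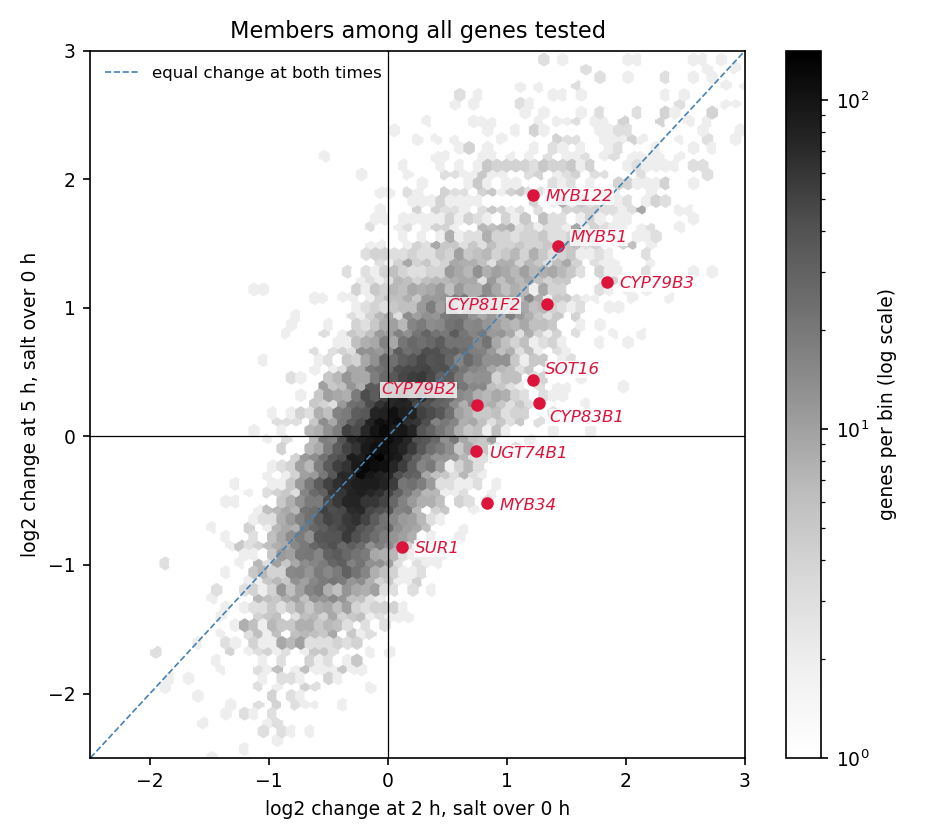
Log2 change at 5 h (y axis) against log2 change at 2 h (x axis), both salt over 0 h, for all genes tested within the axes (grey bins, darker for more genes on a log scale) and the 10 genes (red). MYB122 lies above the dashed line of equal change, MYB51 lies on it, and the other 8 genes lie below it.

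The genes that supply tryptophan were higher throughout at 2 h. All 9 tryptophan synthesis genes rose (median 0.79), and at 5 h 8 rose and 1 fell (median 0.60). Over all genes tested 41.4% were higher at 2 h and 44.1% at 5 h. ASA1, the alpha subunit of anthranilate synthase and the entry enzyme of the pathway, gave 2.20 and 2.16 at 2 h and 0.93 and 1.02 at 5 h. The beta subunit gene ASB1 gave 1.955 and 1.845 at 2 h and 1.11 and 1.23 at 5 h. TSA1, the alpha subunit of tryptophan synthase, shared the change of direction seen in MYB34, with 0.69 ± 0.035 at 2 h and −0.39 ± 0.035 at 5 h. Of the list 7 genes were lower at 5 h than at 2 h and 0 were higher, next to 38.9% lower and 33.6% higher over all genes.

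Among 7 other genes of the glucosinolate core 5 rose and 1 fell at 2 h (median 0.62), and 3 rose and 4 fell at 5 h (median −0.30). Over all genes tested 41.4% were higher and 40.5% lower at 2 h, and 44.1% higher and 43.7% lower at 5 h. The same shares are the background for the counts of the lists below. GGP1, a gamma-glutamyl peptidase acting before SUR1, stood at 2.15 ± 0.038 at 2 h and 1.41 ± 0.038 at 5 h. The glutathione transferase gene GSTF10 stood at 1.64 ± 0.044 and 0.50 ± 0.044, whereas GSTF9 stood at 0.62 ± 0.035 and 0.66 ± 0.035. UGT74C1, the gene that fell at 2 h, stood at −0.46 ± 0.038 and −0.91 ± 0.038. GSTU13, a glutathione transferase linked to the indolic branch, stood at 0.81 ± 0.038 and −0.295 ± 0.038. The sulfotransferase genes SOT17 and SOT18, which favour aliphatic substrates, stood at −0.03 (adjusted p = 0.486, limma) and 0.12 (adjusted p = 0.0151, limma) at 2 h and at −0.72 and −0.61 at 5 h. SOT16 was thus the one sulfotransferase gene of the 3 called higher at 5 h. The 3 are related in sequence, and cross-hybridisation was not tested.

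Some of these genes lie side by side in the order of protein-coding genes of TAIR10.1, a table used for names and order only. SOT16 and SOT18 are direct neighbours on chromosome 1, and MYB122 lies on the far side of SOT18 with 1 gene between them. At 5 h these 3 neighbours stood at 0.44 (SOT16), −0.61 (SOT18) and 1.88 (MYB122). MYB51 and SOT17 are also separated by 1 gene, and stood at 1.48 and −0.72 at 5 h. CYP79B2 and APK2 are direct neighbours on chromosome 4, and both were higher at 2 h (0.75 and 1.19), with 0.25 and −0.23 at 5 h.

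The ring-modifying genes were mixed. Of 8 other genes 4 rose and 4 fell at 2 h (median −0.07), and 1 rose and 6 fell at 5 h (median −0.38). CYP81F1, a hydroxylase of the same subfamily, stood at 1.14 ± 0.04 at 2 h and 2.56 ± 0.04 at 5 h. CYP81F4, which acts at the nitrogen of the ring, fell at both times (−0.84 ± 0.043 and −1.46 ± 0.043). IGMT5, the methyltransferase of that position, stood at 1.01 ± 0.036 at 2 h and −0.46 ± 0.036 at 5 h. IGMT1, IGMT2, IGMT3 and IGMT4 are closely related in sequence and are uncertain as single genes. They ranged from −0.44 to 0.13 at 2 h and from −0.93 to −0.04 at 5 h.

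**Figure D4:**
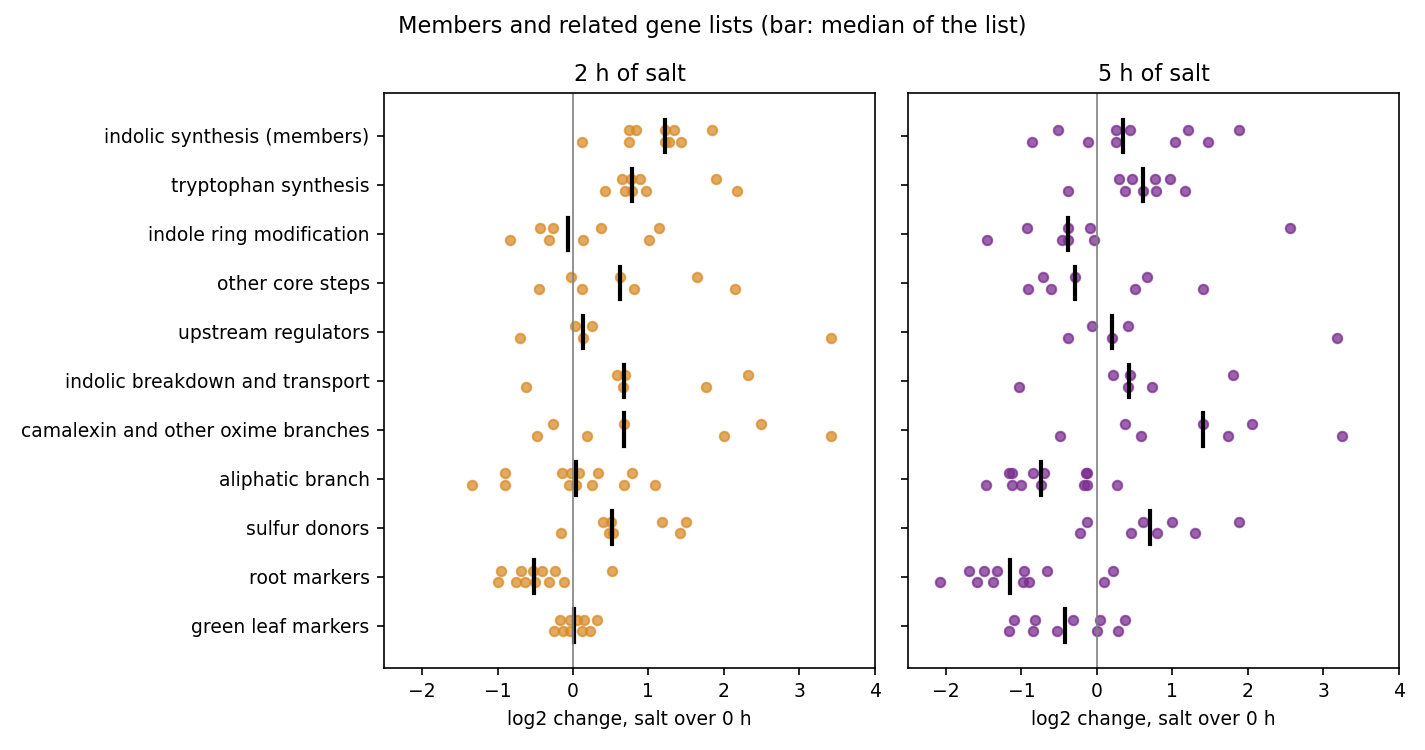
Log2 change of salt over 0 h (x axis) at 2 h (left) and 5 h (right) for the 10 indolic synthesis genes and 10 related gene lists (y axis). Each point is a gene and each black bar the median of its list, such as 1.22 and 0.35 for the indolic synthesis genes and 0.05 and −0.74 for the aliphatic branch.

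The aliphatic branch is the methionine-derived counterpart, and its regulators went the other way from MYB51 and MYB122. MYB28, MYB29 and MYB76 stood at −1.33 ± 0.038, −0.90 ± 0.036 and −0.90 ± 0.042 at 2 h, and at −1.48 ± 0.038, −1.01 ± 0.036 and −0.84 ± 0.042 at 5 h. MYB76 was dim, at 188.4 to 217.9 in the untreated control, and the offset added in background correction shrinks the ratios of dim spots. In the deposited log2 values MYB76 gave −1.85 and −1.59 at 2 h and −1.49 and −1.53 at 5 h. There MYB29 gave −1 and −0.97 at 2 h and −1.19 and −1.16 at 5 h. The order of MYB29 and MYB76 thus depends on the processing. Of 13 genes of that branch 5 rose and 4 fell at 2 h (median 0.05, and −0.13 with the Feature Extraction ratio), and 1 rose and 11 fell at 5 h (median −0.74). With the Feature Extraction ratio the median of all genes at 2 h was −0.145. CYP79F1, its counterpart of CYP79B2 and CYP79B3, gave −0.05 and −0.07 at 2 h and −1.16 on each 5 h array. CYP79F2, the other counterpart, gave 0.73 and 0.61 at 2 h and −0.095 and −0.16 at 5 h. CYP79F2 was dim, at 154.3 to 161.1 in 0 h RNA. Its deposited log2 values were 0.997 and 0.93 at 2 h and −0.16 and −0.28 at 5 h. Cross-hybridisation between CYP79F1 and CYP79F2 was not tested. MAM3 and BCAT4, which act in lengthening the methionine side chain, stood at 1.08 ± 0.042 and 0.79 ± 0.055 at 2 h and at 0.26 ± 0.042 and −0.13 (adjusted p = 0.0581, limma) at 5 h. CYP83A1, the counterpart of CYP83B1, stood at −0.14 ± 0.040 at 2 h and −1.13 ± 0.040 at 5 h. The difference between the branches as lists was not tested. From 2 h to 5 h, 11 of 13 aliphatic genes and 8 of 10 indolic genes were lower at the later time, as were 38.9% of all genes tested.

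Of 5 upstream regulators 3 rose and 1 fell at each time. MYC2, the jasmonate-responsive bHLH factor that works with these MYB proteins, gave 3.44 and 3.40 at 2 h and 3.19 on each 5 h array. Its relatives did not follow it. MYC3 stood at 0.02 (adjusted p = 0.623, limma) at 2 h and 0.20 ± 0.044 at 5 h, and MYC4 fell by 0.70 at 2 h and by 0.39 at 5 h. OBP2, a DOF factor, stood at 0.14 and 0.41, and IQD1, a calmodulin-binding protein gene, at 0.26 and −0.07 (adjusted p = 0.23 at 5 h, limma).

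Of 6 genes for breakdown and transport 5 rose and 1 fell at each time (medians 0.67 and 0.43). GTR1, a glucosinolate importer, had log2 changes of 2.325 ± 0.034 at 2 h and 1.81 ± 0.034 at 5 h, and its relative GTR2 of 0.59 and 0.21. PEN2, a myrosinase acting on indolic glucosinolates in defence, stood at 0.66 ± 0.034 and 0.44 ± 0.034. PEN3, the transporter named with it, stood at 1.765 ± 0.036 and 0.415 ± 0.036. The member that fell was PYK10, the abundant root myrosinase of ER bodies (−0.62 ± 0.037 and −1.03 ± 0.037).

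For camalexin and other fates of the oxime 7 of 9 genes were measured, and CYP71A13 and CYP82C2 did not pass the filter on dim probes. Of the 7, 5 rose and 2 fell at 2 h (median 0.67), and 6 rose and 1 fell at 5 h (median 1.41). WRKY33, the activator of camalexin synthesis, stood at 3.42 ± 0.036 at 2 h and 3.24 ± 0.036 at 5 h. PAD3, the last enzyme of camalexin synthesis, gave 1.96 and 2.04 at 2 h and 0.34 and 0.41 at 5 h. PAD3 was dim, at 137.3 to 138 in 0 h RNA, and its deposited log2 values were larger. They were 2.72 and 2.81 at 2 h and 0.79 and 0.75 at 5 h. CYP71A12 was well above background in the 0 h RNA of all 4 arrays and in 0 of the 4 salt samples, so that its fall, called at both times, has only a bound. Among the nitrilase genes, NIT2 gave −0.28 and −0.255 at 2 h and 2.07 and 2.03 at 5 h, and NIT1 0.18 ± 0.043 and 1.41 ± 0.043. NIT1 and NIT2 are closely related in sequence, and their split is uncertain.

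Of 8 sulfur-donor genes, 7 rose and 1 fell at 2 h (median 0.52), whereas 6 rose and 2 fell at 5 h (median 0.71). APK1 and APK2, the kinases that make the sulfate donor used by SOT16, stood at 0.50 ± 0.046 and 1.19 ± 0.034 at 2 h and at −0.13 ± 0.046 and −0.23 ± 0.034 at 5 h. The APS reductase genes APR2 and APR3, which lead sulfate to cysteine instead, stood at −0.16 ± 0.038 and 0.48 ± 0.046 at 2 h and at 0.99 ± 0.038 and 1.89 ± 0.046 at 5 h. The remaining APS reductase gene of the list, APR1, stood at 0.54 ± 0.034 and 0.62 ± 0.034. Its difference between the times did not pass (0.08, adjusted p = 0.167, limma). ATPS1, an ATP sulfurylase, gave 1.455 and 1.55 at 2 h and 1.32 and 1.28 at 5 h. Its relative ATPS3 stood at 1.42 ± 0.042 at 2 h and 0.46 ± 0.042 at 5 h.

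Markers of roots were mostly lower after salt, unlike most of the 10 genes. Of 12 root markers 11 fell and 1 rose at 2 h (median −0.51), next to 40.5% of all genes lower. At 5 h 10 fell and 1 rose (median −1.15), next to 43.7% of all genes lower. With the Feature Extraction ratio these medians were −0.85 and −1.935. Their summed normalised intensity was 6943 to 7581 in 2 h salt RNA, against 9455 to 9723 in the 0 h RNA of those arrays. It was 5772 to 5857 in 5 h salt RNA, against 9371 to 9883 in 0 h RNA, with 10 or 11 of the 12 markers well above background after 5 h. TIP2;3, the marker that rose at 5 h (0.21 ± 0.044), gave 3192 and 3004 of the 5 h salt sums. It gave 2697 and 2670 in the 0 h RNA of those arrays, so the sum shows less of a fall than the other markers. Of 10 green leaf markers 4 rose and 3 fell at 2 h, and 2 rose and 6 fell at 5 h. Their sum was 1210000 to 1268000 in 2 h salt RNA, against 1167000 to 1199000 in 0 h RNA, and 999300 to 1011000 in 5 h salt RNA, against 1256000 to 1263000 in 0 h RNA. The part of root and leaf shares in the lower values of MYB34, SUR1 and PYK10 at 5 h was not tested. In whole seedlings, fewer cells of a type and less RNA per cell cannot be told apart.

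By Euclidean distance over the 4 arrays' log2 ratios, the named genes nearest to MYB51 were BZIP53 (0.079), DGK2 (0.105) and CPC (0.107). BZIP53 stood at 1.44 at 2 h and 1.49 at 5 h. Nearest to CYP79B2 were UGD1 (0.042), AtIPCS2 (0.047) and SPL1 (0.099). Within a distance of 0.25 lay 28 named genes for MYB51 and 56 for CYP79B2. Such closeness is therefore common with 2 times and 2 arrays each.

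**Figure D5:**
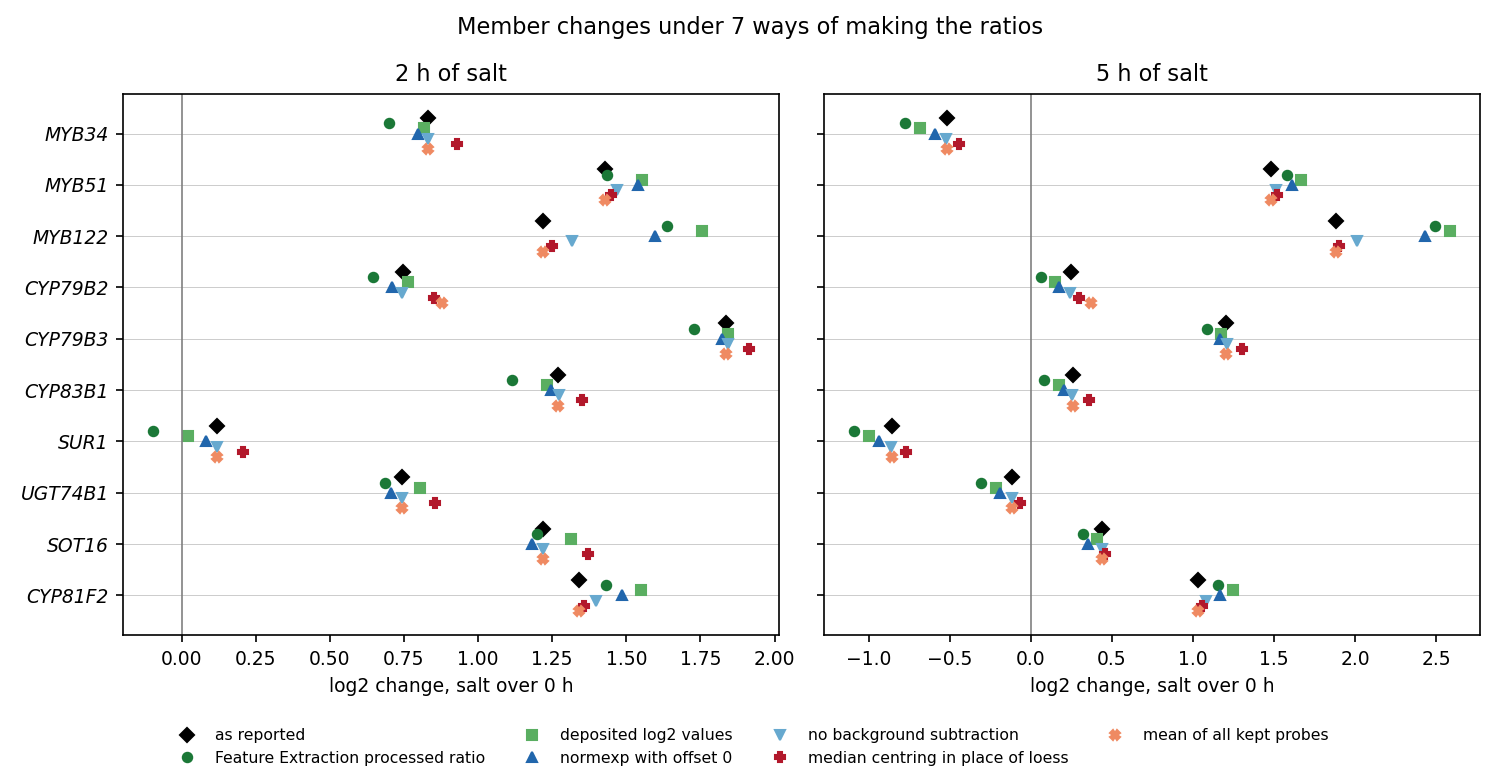
Log2 change of salt over 0 h (x axis) at 2 h (left) and 5 h (right) for each of the 10 genes (y axis) under 7 ways of making the ratios (symbols). SUR1 at 2 h is the only mean that crosses 0 among these ways, and MYB122 has the widest range, from 1.88 to 2.58 at 5 h.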

How the data were processed

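Per the file headers, each deposited scanner file gives the median intensity of a spot and of its background in each channel, and a processed intensity that Feature Extraction 11.5.1.1 had background-subtracted and dye-normalized (the submitters' processing notes name 9.3.2.1). They also hold a log10 ratio of the processed signals and marks with no unit (other) for dim, saturated and uneven spots, per the file headers. The deposited series table holds log2 ratios that follow the log10 ratio in direction and scale (r from 0.9998 to 0.9999) with a shift of 0.0858 to 0.118 per array whose basis is not stated; its column medians ran from 0.0533 to 0.18.

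Ratios were computed from the median intensities with limma 3.58.1 in R 4.3.3: normexp with offset 50, loess with control spots at weight 0, no scaling between arrays, 14 to 19 outlier spots per array left out. Of 43603 probes 34348 matched 1 gene through RefSeq transcripts in a TAIR10.1 table. Probes were kept that passed the background test in the Cy3 channel of 2 or more arrays, or in the Cy5 channel of both arrays at 2 h or at 5 h, and the brightest stood for its gene. Residual and prior degrees of freedom were 2 and 5.44. Testing a ratio to 0 h takes no account of variation among control samples. The 3 comparisons, the 10 members, the 10 other lists and the rule for named genes (all members, any list gene, the 3 nearest genes to MYB51 and CYP79B2) were chosen with earlier results of these data known. Promoter motifs were planned and not searched, since no sequences were used here.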

Additional observations from a re-analysis of the deposited data

Results flagged for a closer look

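The change of a gene after salt differed between 5 h and 2 h in 9 of the 10 genes, by limma's test of the difference itself. The differences (5 h minus 2 h, log2) were −1.35 for MYB34, 0.66 for MYB122, −0.50 for CYP79B2, −0.63 for CYP79B3, −1.01 for CYP83B1, −0.98 for SUR1, −0.86 for UGT74B1, −0.78 for SOT16 and −0.31 for CYP81F2. Over all genes tested 72.5% passed this test, so passing it does not set these 9 apart. Their sizes kept their sign and their call under all 14 alternatives. The difference for MYB34 ranged from −1.50 to −1.35 and that for CYP81F2 from −0.33 to −0.28 over them. With 2 arrays per time, no array was tested for standing apart from its group.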

How the results depend on the processing

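Of the 30 values for the 10 genes in 3 comparisons, the sign changed in 2 cases. SUR1 at 2 h stood at −0.096 with the Feature Extraction ratio, where the median of all genes shifted by −0.145, which is 0.049 relative to it. MYB51 in 5 h against 2 h stood at −0.017 without 5 h replicate 2 and at 0.117 without 5 h replicate 1, within a range of −0.017 to 0.142 over its 14 alternatives. Neither passed the test. SUR1 at 2 h passed with bright probes only (adjusted p = 0.048, limma), with median centring (0.207), without 2 h replicate 1 (0.224) and with the replicate number as a block (0.119, adjusted p = 0.0422, limma), so that its call depends on these choices. The block moved no other call of the 10 genes, and with it 8483 genes were higher and 8329 lower at 2 h. Replicate differences at 2 h and 5 h correlated at 0.059 across genes, so the numbers were not taken to pair samples. CYP79B2 and CYP83B1 at 5 h lost their calls only with the Feature Extraction ratio. Relative to the median of all genes they stood at 0.195 and 0.216 with that ratio. That ratio changed the share of called genes that were higher at 2 h to 38.8% (6565 higher, 10354 lower), against 50.6% (8447 higher, 8259 lower) with the ratio as reported. Of the genes of all lists called as reported, 4 had another sign with that ratio at 2 h and 0 at 5 h. The median of the aliphatic branch at 2 h was −0.128, that of the green leaf markers −0.112 and that of the upstream regulators −0.064. Each of these list medians lay above the median of all genes with that ratio at 2 h, which was −0.145. Among the lists the median of the root markers moved most with that ratio. It went from −0.514 to −0.848 at 2 h and from −1.153 to −1.935 at 5 h. UGT74B1 at 5 h lost its call as given above. The cause was not tested. Counts of genes past the adjusted p, among the 10 and among all genes tested, stayed within 1.5 times of those reported under every alternative run. Counts that also ask for a 2-fold change did not: with the Feature Extraction ratio, the deposited log2 values and offset 0, in that order, 1550, 1210 and 847 genes were at least 2-fold lower at 2 h, against 476 as reported. At 5 h they were 3129, 2696 and 2235, against 1486, and for 5 h against 2 h 1343, 1432 and 1085, against 701. Aquantile scaling leaves ratios as they are, and a slide block could not be fitted with 1 slide.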
